A study of Mus musculus with 2 samples.

Results

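Among the microRNA (miRNA) genes of the mouse cerebral cortex, 6 that lie inside introns of protein-coding genes and have no numbered copy are described here: Mir744 in Map2k4, Mir652 in Tmem164, Mir149 in Gpc1, Mir151 in Ptk2, Mir383 in Sgcz and Mir342 in Evl. They were picked by symbol from the 2202 miRNA genes listed, because their own-strand read counts were high, so their levels are given as a description and without a test. Left cerebral cortex was taken from 2 untreated, as far as the labels say, B6CASTF1/J males at 25 days of age, and 1 small-RNA library was made per mouse. B6CASTF1/J mice are hybrids that inherit a C57BL/6J and a CAST/EiJ genome. The labels number them as biological replicates 1 and 2 of 1 group, so no comparison of conditions exists, and the mouse and its library cannot be told apart.

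An miRNA is cut from a hairpin in a longer transcript, first by Drosha in the nucleus and then by Dicer in the cytoplasm, and a strand from an arm of the hairpin is loaded into an Argonaute protein, where its seed (bases 2 to 8) pairs with target mRNAs. A hairpin in an intron on the sense strand can be cut out of the primary transcript of its host gene, which can still be spliced, so such miRNAs can share the promoter of the host. In brain as in other tissues, many miRNAs are made in this way. The hosts have varied roles: Map2k4 encodes a kinase that activates JNK and p38, Gpc1 encodes the heparan sulfate proteoglycan glypican 1, Ptk2 encodes focal adhesion kinase, Evl encodes an Ena/VASP protein that acts on actin filaments, Sgcz encodes a sarcoglycan and Tmem164 encodes a membrane protein. Host mRNA was not measured in these libraries.

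The mature sequences of 4 of the 6 genes were found in the RefSeq table (GRCm38.p6) and are printed 5′ to 3′ with the seed in capitals, because the seed sets which mRNAs an arm can pair with. Mir151 and Mir383 have no entry there.
miR-744-5p: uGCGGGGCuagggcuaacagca
miR-744-3p: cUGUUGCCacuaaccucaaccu
miR-652-5p: cAACCCUAggagggggugccauuc
miR-652-3p: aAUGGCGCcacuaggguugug
miR-149-5p: uCUGGCUCcgugucuucacuccc
miR-149-3p: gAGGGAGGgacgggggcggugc
miR-342-5p: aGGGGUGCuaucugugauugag
miR-342-3p: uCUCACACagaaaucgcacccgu

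The 8 arms had 8 different seeds. Of these, 7 were, in the RefSeq table, carried by no other gene's mature miRNA. The exception was the seed of miR-149-3p, which 3 other mature miRNAs carried, miR-7016-5p, miR-1943-5p and miR-6967-5p. Their genes were scarce here: Mir7016 had 8 counts in replicate 1 and 18 in replicate 2, Mir1943 had 2 and 5, and the genes listed for miR-6967-5p (Gm27775 and Gm27740) had 0 in both. The GC content of the arms ran from 50.0% in miR-744-3p and miR-342-5p to 81.8% in miR-149-3p, of whose 22 bases 15 are G. The deposited values are counts per gene and join the arms of a hairpin, so the arm that gave the reads is not known from them.

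Whether these genes are single-copy was checked on sequence for 4 of the 6. Of these 4, which have an entry in the RefSeq table, none had an arm that recurs whole in another of the 141767 transcripts of GENCODE M21, on either strand. The longest run that the hairpin shared with another M21 miRNA gene was 15 bases for Mir744 (with Mir1191) and for Mir149 (with Gm25306), 14 bases for Mir652 and 12 bases for Mir342. Over all 392 genes that reached 10 counts in both libraries (the measured genes), 32.4% shared a run of 16 bases or more with another miRNA gene. That cut-off lies just above the 15 bases of Mir744 and Mir149, so the share is a description and sets no contrast with the 4. Mir151 and Mir383 are among the 392 genes, but their arms and longest runs were not looked at singly. Whether either shares a run of 16 bases is thus not given here. Copies were looked for among annotated transcripts only, so the rest of the genome was not searched. The hairpins of Mir744 and Mir149 are printed with both mature arms in capitals, since Mir744 was the most abundant of the 6 and Mir149 the shortest.
Mir744 hairpin: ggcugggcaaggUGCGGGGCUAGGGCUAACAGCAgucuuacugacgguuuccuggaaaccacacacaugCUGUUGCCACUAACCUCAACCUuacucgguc
Mir149 hairpin: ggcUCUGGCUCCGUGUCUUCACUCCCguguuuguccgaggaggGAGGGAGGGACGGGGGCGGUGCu

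Between the arms 35 bases lie in Mir744 and 17 in Mir149, against 20 in Mir342 and 16 in Mir652. The Mir149 hairpin had a GC content of 68.2%, above that of 96.1% of the 335 measured genes with a hairpin in the table, whose median was 51.5%. Mir744 stood at 56.0%, Mir342 at 51.5% and Mir652 at 50.0%. Predicted minimum free energies (RNAfold) per 100 bases were −44.8 kcal/mol for Mir744, −47.3 for Mir342, −50.0 for Mir652 and −55.6 for Mir149, against a median of −43.5 over the 335 genes. All 4 hairpins were thus predicted to be more stable per base than that median, and Mir149 more so than 90.8% of the genes.

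All 6 genes lay on the strand of their host, and none overlapped an exon of any annotated transcript of it. Positions are those of mm10 with GENCODE M21, and introns are counted in the host's longest principal transcript, from its 5′ end. Mir744 (ENSMUSG00000076460.1; chr11:65734733-65734832, minus strand) is in intron 3 of 10 of Map2k4, 359 bases after the upstream exon. Mir151 (ENSMUSG00000065612.1; chr15:73254815-73254882, minus strand) is in intron 23 of 29 of Ptk2, and lies 168 kb from the start of the transcript. Mir149 (ENSMUSG00000065470.1; chr1:92850378-92850443, plus strand) is in intron 1 of 8 of Gpc1, near the 3′ end of an intron of 21.2 kb, and only 1 of the 5 transcripts of Gpc1 spans it. For the other hosts, 2 of 2 (Sgcz), 5 of 7 (Map2k4 and Evl), 7 of 9 (Tmem164) and 5 of 15 (Ptk2) transcripts span the hairpin.

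Mir342 (ENSMUSG00000065436.1; chr12:108658620-108658718, plus strand) is in intron 3 of 13 of Evl, and Mir652 (ENSMUSG00000076011.1; chrX:142739000-142739097, plus strand) in intron 2 of 6 of Tmem164. Males carry a single X chromosome, so Mir652 is present in a single dose in these mice. Mir383 (ENSMUSG00000065457.3; chr8:38252133-38252202, minus strand) is in intron 1 of 7 of Sgcz, by far the longest of the 6 host introns at 708 kb, with exons 409 kb upstream and 299 kb downstream. None of the 6 had another miRNA gene within 10 kb. The nearest was 63.1 kb away for Mir342 and 2056 kb away for Mir383. Of the 392 measured genes, 45.7% had a neighbour within 10 kb.

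**Figure D1:**
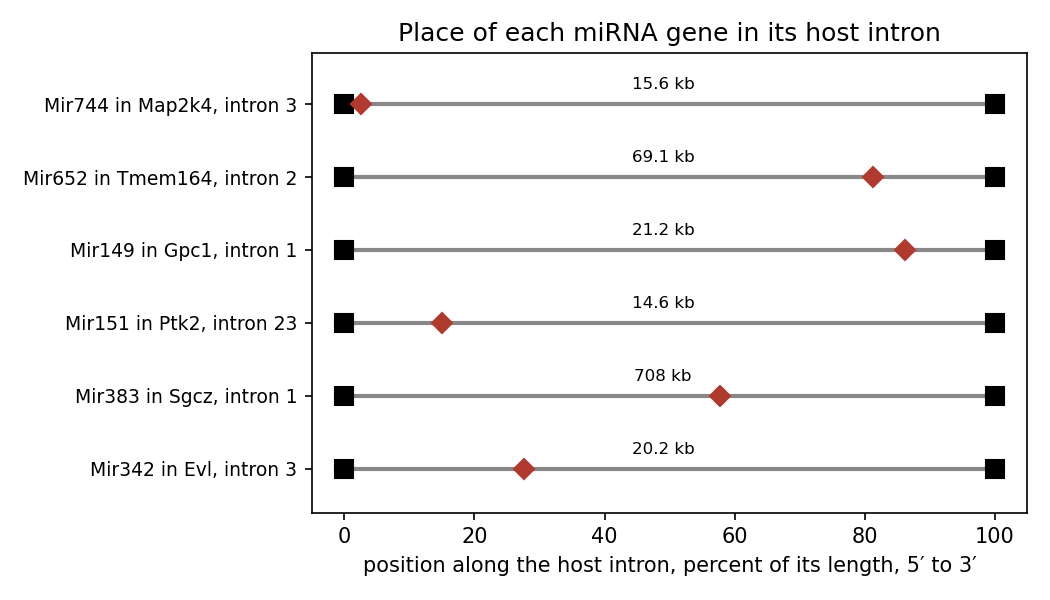
Place of each miRNA gene (red diamond) along its host intron, scaled to the intron's length and drawn 5′ to 3′, with the flanking exons as black squares and the intron length printed. Mir744 sits next to the upstream exon of a 15.6 kb intron, and Mir383 sits 409 kb into an intron of 708 kb.

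The libraries held 2388379 own-strand counts in replicate 1 and 4447390 in replicate 2. Reads with several matches, 48.6% and 52.8% of mapped reads, are in no gene count. Genes with several copies can thus be undercounted beside single-copy genes, and each rank and share that follows holds among the counted reads only. Levels are counts per 1000000 own-strand counts (CPM), and intervals cover counting error only, since copies of 1 molecule made by PCR cannot be recognised without molecular identifiers. Markers of cortical cell types were present: the 12 neuronal genes held 8.78% and 7.49% of counts in replicates 1 and 2, the astrocyte genes 2.07% and 3.11%, the endothelial and mural genes 1.68% and 2.80%, and the oligodendrocyte genes 0.273% and 0.356%. The lower neuronal sum in replicate 2 came with Mir132 (60392 and 37793 CPM), while the list's median log2 ratio (replicate 2 over replicate 1) was 0.26. The higher endothelial and mural sum came with Mir126a (10782 and 22504 CPM). Mir143 (5660 and 5238 CPM) and Mir145a (312 and 268 CPM) were lower in replicate 2, and that list's median was −0.11. The higher oligodendrocyte sum came with Mir219a-2 (1345 and 2210 CPM), while Mir338 changed little (1373 and 1341 CPM) and the median was −0.03. The part of these shifts in the results on the 6 genes was not tested. The copies of miR-124 and miR-9 on the neuronal list were each under 100 CPM on average, but reads that match several copies are not counted, so their levels are uncertain. The liver gene Mir122 held 0.00540% and 0.00576% of counts, and the muscle list 0.00209% and 0.00259%. Larger shares fell to the microglial and leukocyte list (0.231% and 0.249%) and the choroid plexus list (0.0545% and 0.0762%). The epithelial list held 0.0138% and 0.0144%, and the red cell list 0.0134% and 0.0144%.

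Together the 6 genes held 179329 counts in replicate 1 and 326992 in replicate 2. That is 7.51% of the counts of replicate 1 (95% exact Clopper-Pearson interval 7.48 to 7.54%) and 7.35% of replicate 2 (7.33 to 7.38%), or 7.43% ± 0.110 (SD, n = 2). Mir744 alone gave 48.6% and 47.1% of these counts. Mir652 gave 15.8% and 15.1%, Mir151 gave 11.9% and 11.1%, Mir149 gave 10.9% and 13.3%, and Mir342 and Mir383 gave between 6.31% and 6.84% each. In bulk tissue, fewer cells of a type and less RNA per cell cannot be told apart, and this holds for each level that follows.

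Mir744, in the intron of the JNK-pathway kinase gene, had 87158 counts in replicate 1 and 154139 in replicate 2. These are 36492.5 and 34658 CPM, or 35575 ± 1297 CPM (SD, n = 2). It ranked 7 in each library, and its mean level was 3.09 times that of the next of the 6. Mir652, in the intron of the membrane protein gene Tmem164, had 28399 and 49510 counts, which are 11890.5 and 11132 CPM (11511 ± 536). It ranked 16 in replicate 1 and 23 in replicate 2, although its own level differed little between them.

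Mir149, hosted by the glypican gene, had 19527 and 43640 counts, which are 8176 and 9812.5 CPM (8994 ± 1157). It was lower in replicate 1 and ranked 26 and 25. Mir151, hosted by the focal adhesion kinase gene, had 21393 and 36396 counts, which are 8957 and 8184 CPM (8570.4 ± 547). It was higher in replicate 1 and ranked 25 and 31. The ranges of Mir149 and Mir151 overlapped, and their order turned over: there were 0.913 Mir149 counts per Mir151 count in replicate 1 and 1.20 in replicate 2.

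Mir383, in the intron of the sarcoglycan gene Sgcz, had 11307 and 22365 counts, which are 4734 and 5029 CPM (4881 ± 208). It ranked 40 and 41. Mir342, in the intron of the actin regulator gene Evl, had 11545 and 20942 counts, which are 4834 and 4709 CPM (4771 ± 88.4). It ranked 39 and 43. The levels of these 2 genes overlapped as well, and Mir342 was the higher of them in replicate 1 and the lower in replicate 2.

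**Figure D2:**
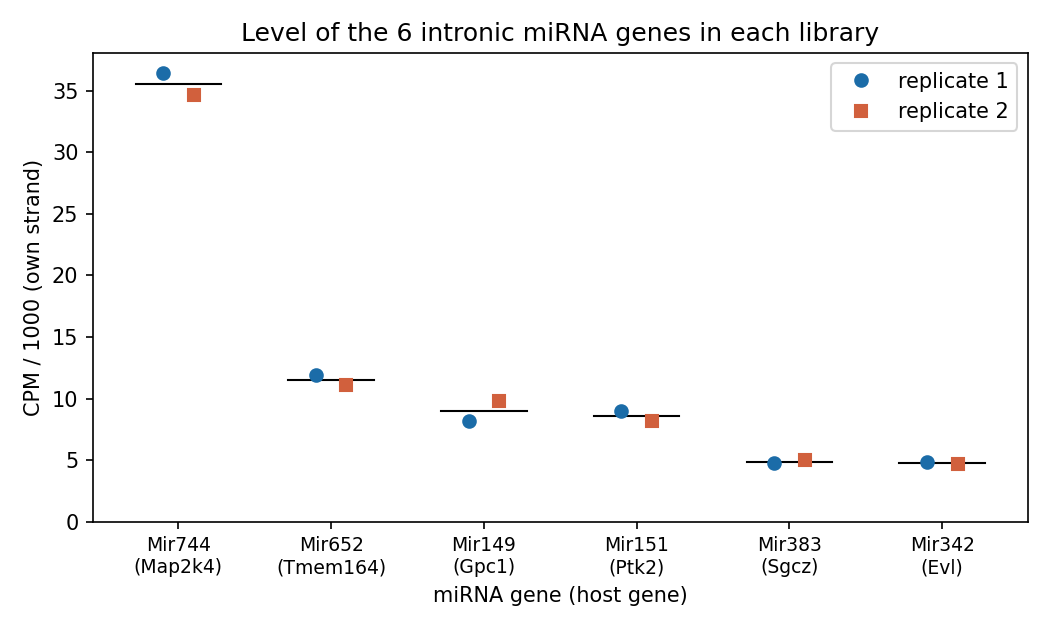
Level of each gene in CPM of own-strand counts divided by 1000, with replicate 1 as circles, replicate 2 as squares and the mean of the 2 libraries as a bar. Mir744 stands at 36492.5 and 34658 CPM, above all others, and the points of Mir149 and Mir151, and of Mir383 and Mir342, overlap.

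By mean CPM the order was Mir744, Mir652, Mir149, Mir151, Mir383 and Mir342. Apart from Mir149 with Mir151 and Mir383 with Mir342, the ranges of no pair overlapped between the libraries, which with n = 2 is a description and not a test. A read of a small RNA covers most of the mature miRNA whatever the length of the hairpin, so CPM was kept as the scale. Divided by the annotated length of 66 to 100 bases, Mir744 stayed highest at 356 CPM per base and Mir342 lowest at 48.2. On that scale Mir149 came next to Mir744 at 136 CPM per base, then Mir151 at 126 and Mir652 at 117, so Mir652 moved from place 2 to place 4.

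Ratios between members within a library do not depend on the library total. Mir744 outnumbered Mir652 by 3.07 to 1 in replicate 1 and by 3.11 to 1 in replicate 2, a difference of 0.02 on the log2 scale with a counting SE of 0.01236. The ratio of Mir744 to Mir342 was 7.55 and 7.36, a difference of −0.04 (log2) with an SE of 0.0178. The widest shift of the 15 pairs was that of Mir149 against Mir151, at 0.39 (log2) with an SE of 0.0176. Mir744 outnumbered Mir149 by 4.46 to 1 in replicate 1 and 3.53 to 1 in replicate 2, and Mir652 outnumbered it by 1.454 and 1.135 to 1. The 4 pairs with the widest shifts all included Mir149, whose share of the counts was larger in replicate 2.

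Differences between the libraries were tested with an exact conditional binomial test, two-sided, over all 392 measured genes and Benjamini-Hochberg adjusted over all of them. The test covers counting error only and compares these libraries, not conditions. It called 56.9% of all genes tested and all 6 members (2 higher and 4 lower in replicate 2, against 34.2% and 22.7% of all genes). Among the 36 other genes that were at least as abundant as the lowest of the 6, it called 34 (94.4%), so a call at this depth is common and says nothing particular about the 6. With 1 library per mouse, no test against the spread between mice was possible. edgeR's exact test, whose dispersion was estimated on these very libraries, called 0.765% of all genes (4.85% at an unadjusted p under 0.05) and none of the 6 at either threshold, but with that dispersion it is no check on differences as small as theirs.

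The differences were small. Mir149 had the largest, a log2 ratio (replicate 2 over replicate 1) of 0.26 with a counting SE of 0.0124, which is 1.20-fold (adjusted p = 6.59e-101 in the exact binomial test). Mir151 had a log2 ratio of −0.13 with an SE of 0.0124 (adjusted p = 7.43e-25), Mir652 −0.10 with an SE of 0.0107 (4.47e-18) and Mir744 −0.07 with an SE of 0.00611 (3.69e-33). Mir383 had a log2 ratio of 0.09 with an SE of 0.0166 (adjusted p = 4.30e-07), and with TMM scaling it was 0.02 and no longer passed (adjusted p = 0.213). Mir342 had the smallest on this scaling, −0.04 with an SE of 0.0167 (adjusted p = 0.0425), and it did not pass when all genes with a count were tested (adjusted p = 0.0757). With TMM scaling the log2 ratio of Mir342 was −0.10 (adjusted p = 6.24e-09), larger than that of Mir383. TMM also gave −0.14 for Mir744, −0.16 for Mir652, −0.19 for Mir151 and 0.20 for Mir149, with no change of sign among the 6.

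All 6 lay within 1.5-fold between the libraries, as did 73.2% of all genes tested. The median absolute log2 ratio of the 6 was 0.09, beside 0.33 over all 392 genes, 0.27 over the 36 others of at least their abundance and 0.30 over the 138 other same-strand intronic genes without numbered copies. With TMM or DESeq2 scaling the median of the 6 was 0.15, and that of all genes 0.32. Their absolute ratios exceeded those of between 5.87% (Mir342) and 39.5% (Mir149) of all genes. These shares and medians are given side by side as a description, since the 6 were chosen with such results known.

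**Figure D3:**
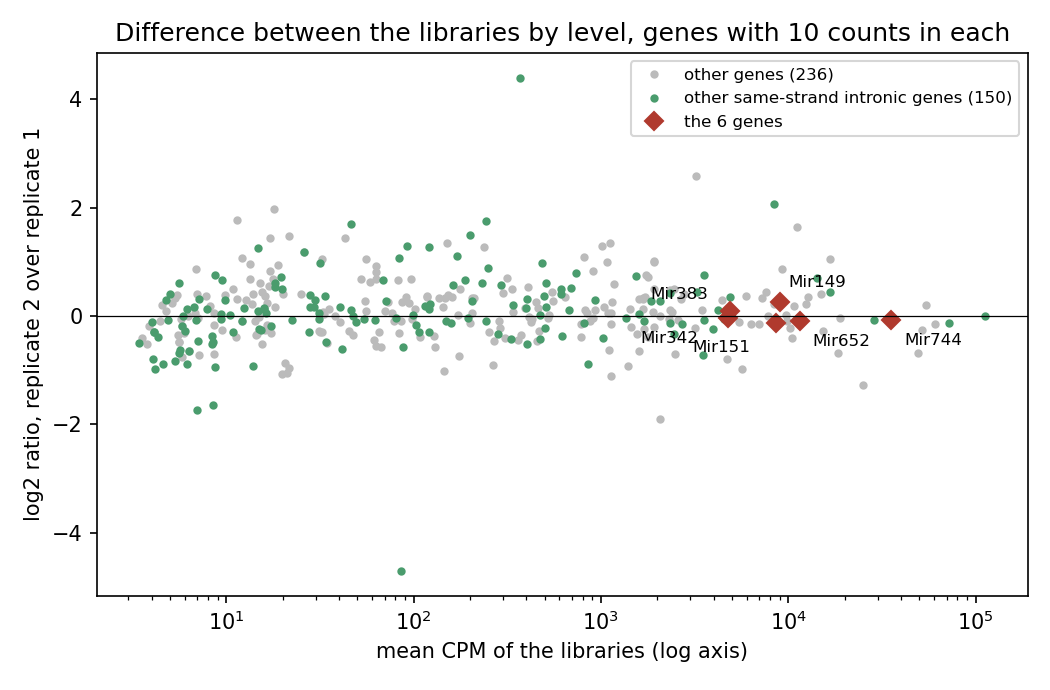
Log2 ratio of replicate 2 over replicate 1 against mean CPM (log axis) for the 392 measured genes: the 6 genes as red diamonds, other same-strand intronic genes in green and the remaining genes in grey. The 6 lie between −0.13 (Mir151) and 0.26 (Mir149).

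None of the 6 genes had a read on the opposite strand, in either library. For Mir744 this allows a share of opposite-strand reads of up to 0.00344% in replicate 1 and 0.00195% in replicate 2 (3 counts of the total), and for Mir383 of up to 0.0265% and 0.0134%. Of the 36 other genes with at least as many counts as the lowest of the 6, 5.56% had any opposite-strand read, and of the 392 genes tested 367 had none. The absence of such reads is thus shared with most genes.

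The symbols chosen are not the whole of their class. Of the 2202 genes, 733 lie on the sense strand in an intron of a protein-coding gene without touching an exon, and 675 of these have no numbered copy. Of the 675, 327 had a count in either library and 144 were measured. These 675 genes held 37.2% and 38.2% of all counts in replicates 1 and 2. Within the class Mir744 ranked 3 by mean CPM, behind Mir139 and Mirlet7g, and Mir652, Mir149 and Mir151 ranked 6, 7 and 8. Mir383 and Mir342 ranked 11 and 12. The other genes among the first 12 were Mirlet7e (rank 4), Mir23b (5), Mir99b (9) and Mir26b (10). The median over the 144 genes was 83.9 CPM, and the lowest of the 6, Mir342, stood at 56.9 times that level; the 6 had been chosen for high levels.

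**Figure D4:**
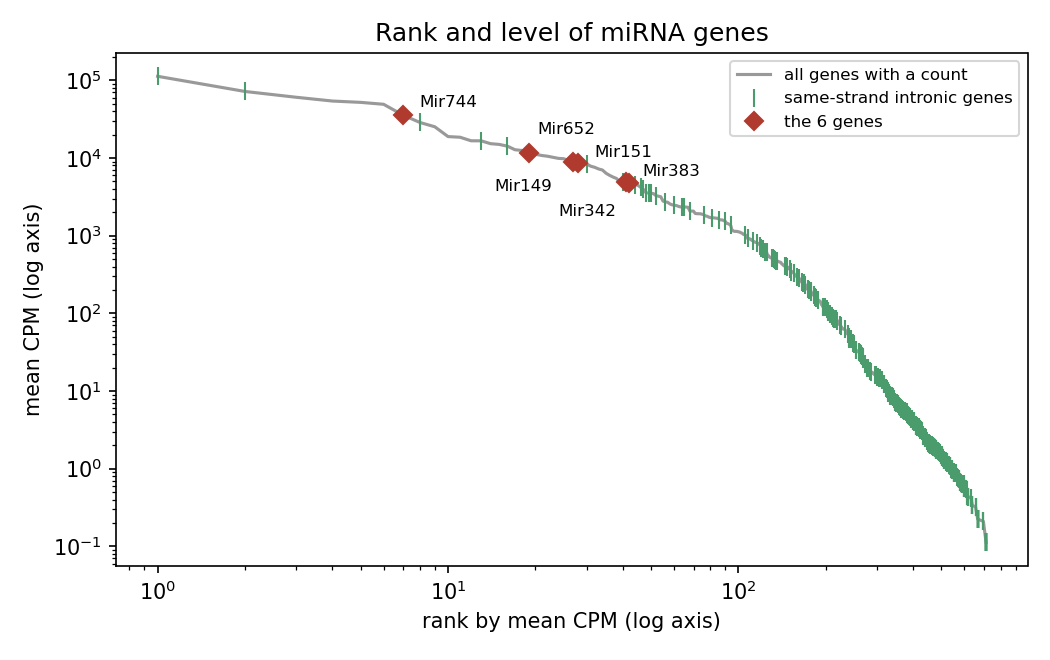
Mean CPM against rank (both log axes) for all genes with a count (grey line), with same-strand intronic genes as green ticks and the 6 genes as red diamonds. The 6 genes span ranks 7 (Mir744) to 42 (Mir342).

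A further list of 64 miRNA genes known from introns of protein-coding genes was set beside the 6. All 64 had a count, 57 met the annotation rule for a sense-strand intron, and 62 were measured. The exact binomial test called 42 of the 62 (67.7%), 26 higher and 16 lower in replicate 2. Over all 392 genes it called 56.9%, 34.2% higher and 22.7% lower. The median log2 ratio of the list was 0.15 beside 0.06 for all 392 genes. The median level of all 392 genes was 121 CPM, below that of the list. The list was led by Mir139 (Pde2a) at 112556 ± 304 CPM, Mirlet7g (Wdr82) at 71794 ± 4709 and Mir23b at 16619.5 ± 3566. The list's median was 384 CPM, midway between Mir488, in an intron of the neuronal gene Astn1 (375 and 418 CPM), and Mir301, in an intron of Ska2, which differed widely between the libraries (32.7 and 710 CPM). Of the list's tested genes 67.7% lay within 1.5-fold between the libraries, where all 6 did.

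The gene nearest to each of the 6 was found by the distance of log2(CPM + 1) over the 2 libraries. Mirlet7e, in an intron of Spaca6, was nearest to Mir744 (29355 and 27941 CPM, distance 0.442). Mir330 was nearest to Mir652 (10074.6 and 11465 CPM, distance 0.243), and Mir328 to Mir149 (7758 and 9108 CPM, distance 0.1315). Mir674 was nearest to Mir151 (7807 and 7854 CPM, distance 0.207). Mir138-1 was nearest to Mir383 (4725 and 5103 CPM, distance 0.0214), and Mir378a, in an intron of the coactivator gene Ppargc1b, to Mir342 (4636 and 4465 CPM, distance 0.0976). Only Mirlet7e and Mir378a of these neighbours met the rule for a sense-strand intron. With 2 libraries, likeness is little more than a similar level.

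Mir151 belongs to a family of hairpins with Mir28a and Mir708, which also lie in introns, of Lpp and of Tenm4. The 5p arms of these 2 relatives are printed because they share a seed with each other, in capitals. Mir151 has no entry in the RefSeq table, so whether it carries that seed was not checked.
miR-28a-5p: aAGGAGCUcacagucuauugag
miR-708-5p: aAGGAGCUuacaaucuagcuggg

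Mir708 had 4014 counts in replicate 1 and 9066 in replicate 2, which are 1681 and 2038.5 CPM (1859.6 ± 253). Mir28a had 1038 and 2490 counts, which are 435 and 560 CPM (497 ± 88.6). Mir28b and Mir28c had 0 counts in both libraries. Mir151 was thus the most abundant of the family, at 5.33 and 4.01 times Mir708 and at 20.6 and 14.6 times Mir28a in replicates 1 and 2. The relatives were higher in replicate 2, with log2 ratios of 0.28 for Mir708 (counting SE 0.0274, adjusted p = 3.25e-24 in the exact binomial test) and 0.36 for Mir28a (SE 0.0533, adjusted p = 1.23e-11), while Mir151 was lower.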

How the data were processed

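The authors deposited raw read counts per miRNA gene, with 3 columns of whole numbers per library, made on mm10 with GENCODE M21, per the readme files. Neither aligner nor counting tool is named in the sources used here. From the values, the columns were read as counts without regard to strand, on the own strand and on the opposite strand, and own-strand counts were used. The strand-blind column differs from the sum of the others in 58 genes, all of which overlap another miRNA gene (Mirlet7e among them). Their reads match the ambiguous reads of that column (166659 in replicate 1). The first 4 lines name no gene (unmapped reads, 31.6% and 18.2% of all reads in replicates 1 and 2, and reads with several matches, in no feature, 7.36% and 6.91% of mapped reads, or ambiguous) and stayed out of totals. A count of 3 is 1.26 and 0.675 CPM.

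With 1 group there is no contrast for edgeR's quasi-likelihood test. Libraries were compared by the exact conditional binomial test (SciPy 1.17.1), with log2 ratios of CPM + 1, after a test on simulated counts. edgeR 4.0.16 gave TMM factors and an exact test with the common dispersion of the pair, and DESeq2 1.42.0 gave size factors (R 4.3.3). Hairpins were folded with RNAfold 2.7.2. Other tools were Python 3.11.15, NumPy 2.4.6, pandas 2.3.3 and matplotlib 3.10.9. Named genes are the 6, the nearest gene to each, the relatives of Mir151, and of the intronic list the top 3 and Mir488, which ties with Mir301 at its median (Mir301 was added after values were seen). Genes sharing a seed or a run with the 6, the class members ranked among the first 12, and examples from the cell-type marker lists were added. The members and lists were chosen with earlier results of these data known. Whether CAST/EiJ reads mapped less well to the C57BL/6J reference was not tested.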

Additional observations from a re-analysis of the deposited data

Results flagged for a closer look

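Mir708, the relative of Mir151 in an intron of Tenm4, had 7 opposite-strand counts in replicate 2 beside 9066 on its own strand, above the 3 counts that a count of 0 allows. In replicate 1 it had 1 beside 4014.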

How the results depend on the processing

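The summed share of the 6 genes was 7.43%, and became 8.06% in the strand-blind column (both strands together), which holds the same counts for the 6 but leaves out reads of overlapping genes, 6.98% and 8.55% of own-strand counts, from the total, 8.37% without Mir139 in the total, 3.14% with all mapped reads as the total and 7.75% without numbered copies. It ran from 7.35% to 7.51% when either replicate was left out. No log2 ratio of the 6 changed sign under any of the 8 alternatives, but not all of these could change one. The count filters leave a ratio as it is, and the smaller pseudocount and edgeR's ratio barely alter it. Only TMM, DESeq2 size factors, the strand-blind column and the total without Mir139 rescale the ratios. All 6 passed the binomial test in the main setting, and 0 passed edgeR's exact test with common dispersion, where 3 genes passed in all against 223. That test takes its dispersion (biological coefficient of variation 0.311) from the pair it then compares, so it is no check on differences as small as those of the 6. Mir383 lost its call with DESeq2 size factors too (log2 ratio 0.02, adjusted p = 0.235), and Mir342 in the strand-blind column (−0.01, adjusted p = 0.537), where its counts are unchanged and the totals are smaller. Without a count filter, 30.5% of 761 genes were called, and with at least 100 counts in each library 80.2% of 242. No paired analysis was possible because the libraries form 1 group. With 2 libraries no replicate can be left out of a ratio between them.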
